A study of Mus musculus with 3 samples.

Results

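The blood-brain barrier genes described here are 10 of the 32285 genes in the count tables. They were listed by name for their known part in the barrier: the junction genes Cldn5, Ocln and Tjp1, the transcytosis genes Plvap, Cav1 and Mfsd2a, and the transporter genes Abcb1a, Slco1a4, Slc2a1 and Slc7a5. Each was measured in endothelial cells by adding up its transcript counts over all such cells of a library, and in the other cell classes in the same way as background.

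Endothelial cells of the brain seal the gaps between them with tight junctions, in which claudins and occludin span the membrane and zonula occludens proteins tie them to the actin skeleton. They carry little cargo across the cell in caveolae, small pits of the membrane that caveolins shape, and the lipid transporter Mfsd2a is known to hold this route low, while Plvap, which forms the diaphragms of fenestrae and caveolae, is known for its scarcity in mature barrier endothelium. Nutrients such as glucose and large neutral amino acids enter the brain through solute carriers, and efflux pumps of the ABC family return many drugs to the blood.

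The study sequenced single cells from the brains of WT male mice of strain C57BL6J, aged 10 to 12 weeks by the study's methods, without treatment (naive) or after a transient ischaemic attack (TIA), here a filament occlusion of the middle cerebral artery for 5 min. One library was made per condition, naive, 24 h after TIA and 3 d after TIA, each from cells of 3 pooled mice, taken from the ipsilateral hemisphere after TIA; the hemisphere of the naive mice is not stated. Tissue was freed of white matter and meninges and digested with papain, and propidium iodide-negative live cells were sorted for the 10x 3′ assay, which counts a transcript once by its unique molecular identifier (UMI), read near its 3′ end. The labels call the control mice naive and name no sham operation for them, and for mice without one anaesthesia and surgery cannot be told apart from the occlusion.

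There were no replicates, so no difference was tested, and what separates 2 conditions cannot be told apart from what separates their libraries. Intervals given here are at 95% and cover counting error only, and both comparisons use the same naive library. The naive library held 4804 barcodes with 37987228 UMIs, the 24 h library 1619 barcodes with 12919691 UMIs and the 3 d library 5505 barcodes with 48636436 UMIs. Cells with at least 500 genes and at most 7% mitochondrial UMIs were kept, which left 4018, 1225 and 4781 cells with median depths of 7750, 8123 and 7868 UMIs. Of 11913 distinct barcodes, 15 occurred in more than 1 library, and 0 were shared between the endothelial cells of different libraries.

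The endothelial-like cluster carried 12 of 12 endothelial markers, none of which is a barrier gene of the set, and is called endothelial from here on. It held 306 naive cells (7.62% of kept cells, Clopper-Pearson interval 6.81 to 8.48), 236 cells at 24 h (19.3%, 17.1 to 21.6) and 615 cells at 3 d (12.9%, 11.9 to 13.8). These cells summed to 1493837, 1320325 and 3016131 UMIs, with median depths of 4623.5, 5645 and 4309 UMIs per cell. The barrier genes had been kept out of the clustering, so their levels did not place a cell in the cluster. The 12 markers together stood at 13917 counts per 1000000 UMIs of the summed cells (CPM) in the naive library, 14162 CPM at 24 h and 14656 CPM at 3 d.

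Markers of other cells were also present in these sums, and some differed between libraries. The 5 red blood cell markers, led by Hbb-bs, summed to 12374 CPM in the naive library, 27.3 CPM at 24 h, where Hbb-bt was at 0, and 3485 CPM at 3 d. The 9 microglial markers summed to 846, 364 and 1139 CPM, and the 10 astrocyte markers, led by Slc1a2, to 899.7, 562 and 1336 CPM. The 10 oligodendrocyte markers, led by Mal, summed to 550.3, 838 and 656 CPM with Ugt8a at 0 at 24 h. Mal alone stood at 371, 785 and 498 CPM, so the higher sum at 24 h lay in Mal and not in the list as a whole. The 9 pericyte markers, led by Rgs5, summed to 248, 239 and 126 CPM. The 10 neuron markers, led by Stmn2, summed to 143, 48.5 and 79.2 CPM, with Rbfox3 at 0 in all 3 libraries and Syt1 at 0 at 24 h. The 7 smooth muscle markers, led by Mylk, summed to 23.4, 31.1 and 31.2 CPM, with Tagln at 0 in the naive and 24 h libraries and Cnn1 at 0 in both TIA libraries. The remaining lists of the 18 cell types summed to at most 30.2 CPM, for the neutrophil markers at 3 d. With the red blood cell markers taken out of the total, the log2 ratio of Slc2a1 at 24 h was 1.37 and that of Cav1 was -0.72, against 1.39 and -0.70 with them. The part of the other marker shifts in the barrier results was not tested.

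The first comparison asks how the barrier genes differ from naive 24 h after TIA. Slc2a1, Slc7a5 and Slco1a4 were higher, the caveolar coat gene Cav1 was lower, and the junction genes moved by less than 1.5-fold. Of 9 members with enough counts (at least 100 UMIs over both libraries), 3 were at least 1.5-fold higher, where 7.43% of the 5037 genes with that depth were. In the other direction 1 member, Cav1, was at least 1.5-fold lower, beside 5.48% of those genes. Over the 9 members with a ratio the median log2 ratio to naive was 0.39, against 0.01 over the 5037 genes. With Plvap set to the floor of 3 UMIs in both libraries, which adds a ratio of library totals and no measured change, the median over 10 was also 0.39.

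The second comparison asks the same of the 3 d library, where transporters were closer to naive than at 24 h and Cldn5 was farther from it. Of the 9 members with enough counts, 0 were at least 1.5-fold higher and 0 at least 1.5-fold lower, where 9.27% of 6916 genes were higher and 2.78% lower by that much. The median log2 ratio over the 9 members was 0.21 (0.18 with Plvap at the floor), and 0.07 over the 6916 genes. By role, the median at 24 h was 0.26 for the 3 junction genes, -0.15 for the 2 measured transcytosis genes and 0.81 for the 4 transporters. At 3 d these medians were 0.21, -0.42 and 0.47.

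**Figure D1:**
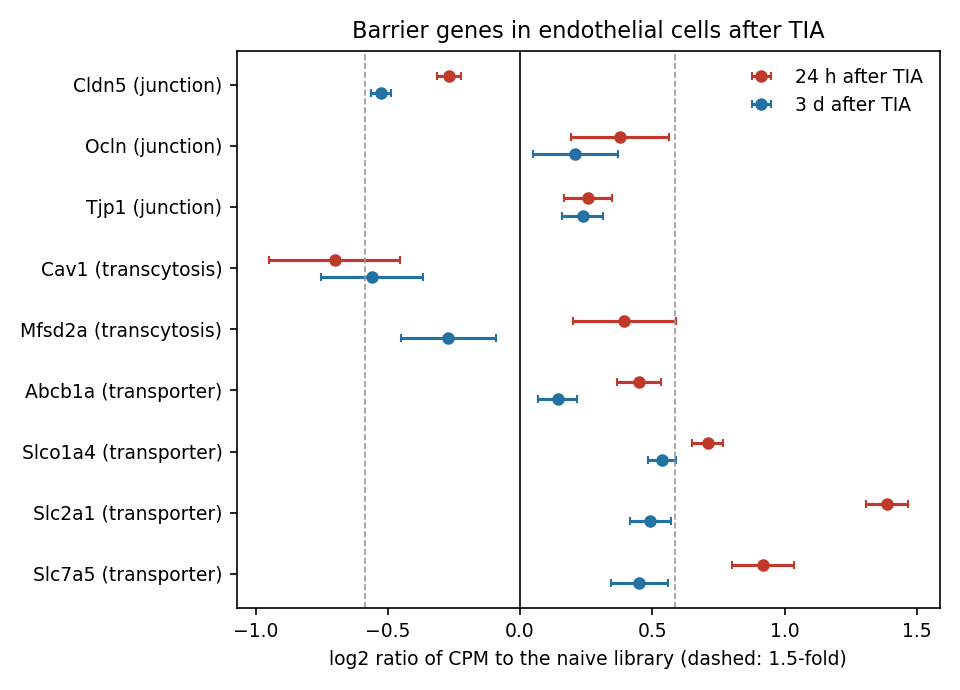
Log2 ratio of CPM to the naive library in endothelial cells for the 9 members with a ratio, at 24 h (red) and 3 d (blue), with 95% counting intervals and dashed lines at 1.5-fold. Slc2a1 lies farthest above 0 at 24 h (1.39) and Cav1 farthest below it (-0.70).

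Cldn5, the claudin that makes up most tight junction strands of brain endothelium, stood at 6509 CPM in the naive library (9724 UMIs), 5401 CPM at 24 h and 4526 CPM at 3 d. It was highest in the naive library and lowest at 3 d, and the 3 counting intervals did not overlap. The log2 ratio to naive was -0.27 (interval -0.31 to -0.23) at 24 h and -0.52 (-0.56 to -0.49) at 3 d, a level 1.44-fold lower and so short of 1.5-fold. Scaled by the median ratio of genes, the log2 ratio at 3 d was -0.59, just past it. Cldn5 thus moved the opposite way from the other junction members.

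Ocln encodes occludin, which spans the membrane beside the claudins. Its level was 302.6 CPM in the naive library (452 UMIs), 393 CPM at 24 h and 349.8 CPM at 3 d. The naive library was the lowest and the 24 h library the highest. Its log2 ratios were 0.38 (0.19 to 0.56) at 24 h and 0.21 (0.05 to 0.37) at 3 d.

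Tjp1, the scaffold that links tight junctions to actin, had 1281 CPM in the naive library, 1531 CPM at 24 h and 1509.9 CPM at 3 d. Both TIA libraries were above the naive one, at log2 ratios of 0.26 (0.17 to 0.35) and 0.24 (0.16 to 0.32). Between 24 h and 3 d no difference in Tjp1 was detectable at this depth (log2 ratio of 3 d to 24 h -0.02, interval -0.10 to 0.06).

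Plvap, the diaphragm gene, had 0 UMIs in the 306 naive endothelial cells, which allows a share of cells with a UMI of up to 0.980%, taking 3 cells as the limit (Clopper-Pearson upper limit 1.20%). It had 0 UMIs in the 236 cells at 24 h, which allows up to 1.27% in the same way (1.55%), and 2 UMIs in 2 of 615 cells at 3 d (0.325%). No fold is given because every library was under the floor of 3 UMIs, equal to 2.01 CPM in the naive library and 2.27 CPM at 24 h. A Plvap difference between the libraries was not detectable at this depth.

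Cav1, the coat protein of caveolae, stood at 257 CPM in the naive library (384 UMIs), 158 CPM at 24 h (209 UMIs) and 174 CPM at 3 d (526 UMIs). The naive library was the highest, and the intervals of the TIA libraries overlapped each other but not that of the naive library. The log2 ratio to naive was -0.70 (-0.95 to -0.45) at 24 h, 1.62-fold lower, and -0.56 (-0.75 to -0.37) at 3 d. The 5 cells with the most Cav1 UMIs held 13.9% of them at 24 h, and without those cells of each library the log2 ratio was -0.78. In cells with at most 1 UMI from arterial markers it was -0.49, which is under 1.5-fold. At 3 d it was -0.59 with cells taken from clusters at resolution 1, just past 1.5-fold. Over all alternatives the value at 3 d lay between -0.625 and -0.31.

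Mfsd2a, which carries lysophospholipids into the brain, moved in opposite directions at the 2 times. It stood at 270.4 CPM in the naive library (404 UMIs), 355 CPM at 24 h (469 UMIs) and 224 CPM at 3 d (676 UMIs). The 24 h library was the highest and the 3 d library the lowest. The log2 ratio to naive was 0.39 (0.20 to 0.59) at 24 h and -0.27 (-0.45 to -0.09) at 3 d, and from 24 h to 3 d the level was 1.58-fold lower, a log2 ratio of -0.66 (-0.84 to -0.49).

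Slc2a1, the facilitated glucose transporter of the barrier, had the largest log2 ratio of the 9 members with a ratio at 24 h. Its level was 1259.8 CPM in the naive library (1882 UMIs), 3295 CPM at 24 h (4351 UMIs) and 1773 CPM at 3 d (5347 UMIs). The 24 h library stood well above the other two, with the 3 d library between it and naive. The log2 ratio to naive was 1.39 (1.31 to 1.47) at 24 h, 2.62-fold higher, and 0.49 (0.42 to 0.57) at 3 d. From 24 h to 3 d the level fell 1.86-fold, a log2 ratio of -0.89 (-0.95 to -0.84).

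Slc7a5, the light chain of the carrier for large neutral amino acids, followed the same order of libraries. It had 634 CPM in the naive library (947 UMIs), 1198 CPM at 24 h (1582 UMIs) and 866 CPM at 3 d (2613 UMIs). The log2 ratio to naive was 0.92 (0.80 to 1.04) at 24 h, 1.89-fold higher, and 0.45 (0.34 to 0.56) at 3 d. Slc3a2, which encodes the heavy chain of the same carrier, stood at 424, 716 and 675 CPM, so both chains were lowest in the naive library.

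Slco1a4, an organic anion carrier, had 2644 CPM in the naive library (3950 UMIs), 4325 CPM at 24 h (5710 UMIs) and 3835 CPM at 3 d (11567 UMIs). Both TIA libraries were above the naive one. The log2 ratio was 0.71 (0.65 to 0.77) at 24 h, 1.64-fold higher, and 0.54 (0.48 to 0.59) at 3 d. The value at 3 d is just under the 1.5-fold line at a log2 ratio of 0.585, and it was above it, for example, at 0.61 without doublets called by Scrublet and at 0.63 as a mean of CPM per cell.

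Abcb1a encodes the efflux pump P-glycoprotein. It stood at 1443 CPM in the naive library, 1971 CPM at 24 h and 1593 CPM at 3 d. Again the 24 h library was the highest and the naive library the lowest, with log2 ratios of 0.45 (0.37 to 0.53) and 0.14 (0.07 to 0.22). Of the 4 transporters, then, each had its highest level at 24 h and its lowest in the naive library in the sum over all endothelial cells.

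**Figure D2:**
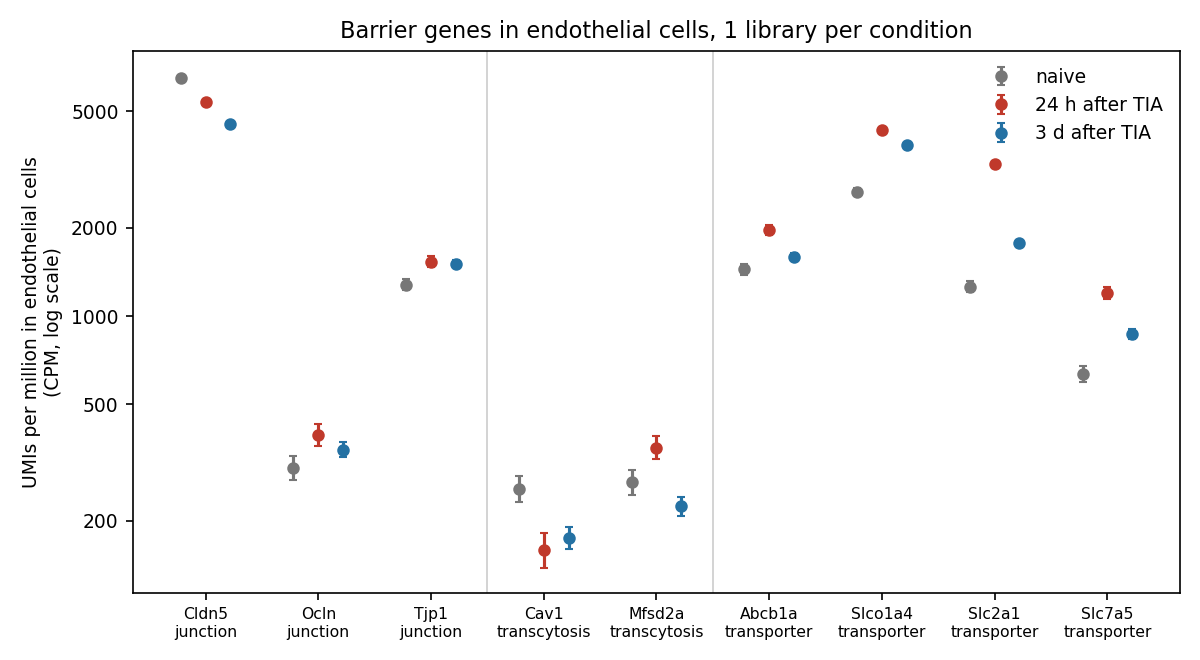
CPM (log axis) of 9 members in the summed endothelial cells of the naive, 24 h and 3 d libraries, with 95% Poisson intervals; Plvap, with 0, 0 and 2 UMIs, is not drawn. The transporters Slc2a1, Slc7a5, Slco1a4 and Abcb1a are highest at 24 h, while Cldn5 and Cav1 are highest in the naive library.

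The share of endothelial cells with a UMI is given for the members that not nearly every cell carried. Slc7a5 had a UMI in 78.4% of naive endothelial cells, 94.1% at 24 h and 88.6% at 3 d. To set depth equal, cells with at least 2000 UMIs were thinned to that number, which left out 29 of 306, 12 of 236 and 43 of 615 endothelial cells. The expected shares for Slc7a5 were then 64.2%, 83.4% and 75.1%. In microglia, with median depths of 7829, 9381 and 7757 UMIs, Slc7a5 had a UMI in 17.7%, 22.6% and 20.2% of cells, or 5.14%, 5.50% and 5.85% after thinning, which left out 16, 5 and 10 microglia. The endothelial shares therefore lay above the microglial ones in each library at equal depth.

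Cells with a Cav1 UMI made up 59.2% of naive endothelial cells, 48.3% at 24 h and 45.4% at 3 d, and 37.3%, 25.2% and 27.8% after thinning. Microglia had a Cav1 UMI in 0.197%, 0% and 0.241% of cells, where 0 of 279 cells at 24 h allows up to 1.08% at a limit of 3 cells (Clopper-Pearson 1.31%). Mfsd2a had one in 56.5%, 69.5% and 55.0% of endothelial cells, 37.8%, 45.2% and 34.9% after thinning, against 0.393%, 0.358% and 1.29% of microglia. For Mfsd2a the thinned share was highest at 24 h and lowest at 3 d, as was its level. Ocln was found in 65.7%, 80.5% and 73.7% of endothelial cells (44.0%, 52.0% and 50.9% thinned), against 2.75%, 3.58% and 2.65% of microglia.

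The remaining 5 measured members were found in nearly every endothelial cell, so their shares say little about level. The lowest of these shares was 93.1%, for Slc2a1 in the naive library, where 87.5% were expected after thinning. Slc2a1 reached 98.3% at 24 h and 97.4% at 3 d (97.7% and 93.7% thinned), against 22.8%, 28.0% and 27.1% of microglia (7.06%, 7.71% and 8.36% thinned). Microglia carried a Cldn5 UMI in 2.26%, 4.30% and 4.18% of cells, and a Tjp1 UMI in 80.2%, 78.1% and 76.5%, so Tjp1 is not confined to endothelial cells.

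Endothelial cells differ along the vascular tree, and markers of its segments shifted between the libraries. The 9 arterial markers, led by Mgp, summed to 632 CPM in the naive library, 243 CPM at 24 h and 617 CPM at 3 d. The 8 venous markers, led by Vwf, summed to 339, 1138 and 604 CPM, and the 6 capillary markers to 7931, 5674 and 6936 CPM. The barrier genes were therefore also summed within ranges of these markers, with at least 2 UMIs as the limit. That gave 45, 12 and 74 cells (naive, 24 h and 3 d) with arterial markers alone, 69, 128 and 244 cells with venous markers alone, 19, 35 and 76 cells with both, and 173, 61 and 221 cells with neither. These are ranges and not cell types, since 55, 40 and 100 cells lay 1 UMI under the arterial limit and 67, 37 and 125 cells 1 UMI under the venous one. The markers that set the ranges also differed between libraries, for example Lcn2 (4, 181 and 77 UMIs) and Gkn3 (190, 3 and 351 UMIs). A range may therefore hold unlike cells in 2 libraries, and a ratio within it does not hold the vessel segment fixed.

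The Slc2a1 difference at 24 h was found in each range. In cells with neither kind of marker Slc2a1 stood at 1201 CPM in the naive library and 3078 CPM at 24 h, a log2 ratio of 1.36 (1.22 to 1.498). In venous marker cells the log2 ratio was 1.58 (1.43 to 1.73) and in arterial marker cells 1.00 (0.76 to 1.24). Slc7a5 had a log2 ratio of 1.05 (0.85 to 1.25) in cells with neither and 0.86 (0.66 to 1.06) in venous marker cells, but 0.20 (-0.37 to 0.73) in the arterial marker cells, where 39 UMIs at 24 h left no detectable difference. Slco1a4 ranged from 0.49 in arterial marker cells to 1.05 in cells with both kinds of marker. Abcb1a lay between 0.40 and 0.48 in the other ranges, but no difference was detectable in arterial marker cells (0.06, -0.27 to 0.39).

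Cav1 was lower at 24 h in each range, but by different amounts. Its log2 ratio was -1.63 (-2.33 to -0.94) in cells with both kinds of marker, -0.51 (-0.91 to -0.11) in venous marker cells and -0.44 (-0.96 to 0.05) in cells with neither, where the interval includes 0. In arterial marker cells it was -0.88 (-1.90 to 0.01), which also includes 0. Cldn5 was lower in each range as well, at log2 ratios from -0.57 to -0.19 at 24 h and from -0.91 to -0.38 at 3 d. In the finer clustering at resolution 1, Cldn5 at 24 h was -0.34 in the larger group of endothelial cells and -0.07 (-0.16 to 0.01) in the smaller one, where no difference was detectable. Whether the shift in arterial and venous markers has a part in the Cav1 result beyond these values was not tested.

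At 24 h Mfsd2a was higher than naive in each range except the arterial marker cells. Its log2 ratio was 0.73 (0.39 to 1.07) in cells with neither kind of marker and 0.54 (0.17 to 0.91) in venous marker cells. In cells with both kinds it was 0.61 (0.03 to 1.23). It was -0.60 (-1.47 to 0.19) in the 12 arterial marker cells, where the interval includes 0. A finer clustering at resolution 1 divided the endothelial cells into a larger group of 203, 148 and 439 cells and a smaller one of 103, 88 and 176 cells. In the larger group Mfsd2a stood at 313, 324 and 248 CPM, and the log2 ratio at 24 h was 0.05 (-0.18 to 0.28). In the smaller group it stood at 164, 426 and 171 CPM, a log2 ratio of 1.37 (0.97 to 1.80). The Mfsd2a difference at 24 h was thus found in the smaller group and was not detectable in the larger one, while Slc2a1 was higher in both (1.30 and 1.70). At 3 d the log2 ratio of Mfsd2a lay between -0.37 and -0.06 in the 4 marker ranges, with 0 inside each interval. It was -0.34 (-0.54 to -0.14) in the larger group and 0.06 (-0.36 to 0.48) in the smaller one, so the lower level at 3 d was detectable in the larger group and in the sum over all endothelial cells. Abcb1a in the smaller group stood at 1312, 1892 and 1242 CPM, so there the 3 d library and not the naive one was lowest, with a log2 ratio at 3 d of -0.08 (-0.23 to 0.07). Ocln, higher in the sum at both times, was at -0.04 (-0.59 to 0.52) and -0.05 (-0.53 to 0.46) in cells with both kinds of marker.

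Other genes with related roles were read from fixed lists, whose counts stand beside 7.43% higher and 5.48% lower over all genes at 24 h, and 9.27% and 2.78% at 3 d. A gene could reach 100 UMIs through the library in which it was high, so these counts and medians are given as descriptions. Of 25 other junction genes, 16 had enough counts at each time, and their median log2 ratio was 0.02 at the earlier time and -0.12 at the later one. One was at least 1.5-fold higher at 24 h, the connexin gene Gjc1 at 154.6, 320.4 and 205 CPM (1.05, interval 0.82 to 1.29), and 1 at 3 d, the scaffold gene Magi1 at 195, 251 and 299 CPM (0.62, 0.43 to 0.82). None of the 16 was lower by that much at either time. The claudin genes Cldn1 and Cldn3 and the adaptor gene Cgn, named here after their values were seen, had 0 UMIs in endothelial cells of all 3 libraries.

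Of 10 other caveolae genes, 8 had enough counts, with medians of -0.11 and -0.19. The one past 1.5-fold was Ehd2, which shapes the neck of caveolae, at 88.4, 75.0 and 54.0 CPM and a log2 ratio of -0.71 (-1.05 to -0.37) at 3 d. Of 13 receptors of receptor-mediated transport, 7 were measured at 24 h, 2 of them higher, and 10 at 3 d, 4 of them higher, with 0 lower and medians of 0.26 and 0.35. Insr, the insulin receptor, stood at 253, 506 and 398 CPM, with a log2 ratio of 1.00 (0.82 to 1.19) at 24 h. Igf1r, the receptor for insulin-like growth factor, had 2193, 3611 and 3452 CPM, at 0.72 (0.66 to 0.78) and 0.65 (0.60 to 0.71). The endocytic receptor gene Lrp1 was higher at 3 d, at 0.81 (0.23 to 1.42), and reached 100 UMIs through the 3 d library (32, 11 and 113 UMIs). At 24 h, under that limit, it was lower (-1.36, -2.50 to -0.34). Its value at 3 d changed direction, to -0.14, in the 50% of endothelial cells with the lowest share of UMIs from other classes' markers.

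Of 9 other ABC transporters, 5 had enough counts at 24 h and 6 at 3 d. The median log2 ratio was 0.28 at 24 h, with 1 higher and 0 lower, and 0.52 at 3 d, with 2 higher and 1 lower. Abcg2, a drug efflux pump like Abcb1a, stood at 777, 1216 and 1087 CPM and had a log2 ratio of 0.65 (0.54 to 0.76) at 24 h. At 3 d Abcc5 (0.98, 0.46 to 1.52), which reached 100 UMIs through the 3 d library (39, 60 and 155 UMIs), and Abcc4 (0.62, 0.49 to 0.75) were higher, and Abcg1, a sterol exporter, was lower (-0.71, -1.24 to -0.17).

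Among 29 other solute carriers, 21 were measured at 24 h, with 5 higher, 1 lower and a median of 0.22. At 3 d 22 were measured, with 2 higher, 1 lower and a median of 0.11. The taurine carrier Slc6a6 went against the transporter members, at 1697 CPM in the naive library, 604 CPM at 24 h and 1037 CPM at 3 d. Its log2 ratios were -1.49 (-1.61 to -1.38) and -0.71 (-0.79 to -0.63). Slc16a1, which carries lactate and ketone bodies, had 347, 660.4 and 395 CPM and a log2 ratio of 0.93 (0.77 to 1.09) at 24 h. Slc35f2 was higher at 24 h (0.78, 0.42 to 1.13), and Slc3a2 (0.67, 0.54 to 0.80) and Slco2b1 (0.64, 0.43 to 0.85) were higher at 3 d.

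The barrier state of endothelium depends on Wnt signals from neighbouring cells. Of 19 Wnt and barrier regulators, all measured, 3 were higher and 0 lower at 24 h with a median of -0.02, and 2 were higher and 2 lower at 3 d with a median of 0.04. The 3 at 24 h were Fzd4 (1.05, 0.78 to 1.31), Reck (0.94, 0.70 to 1.19) and Lrp5 (0.89, 0.49 to 1.30), a receptor, a cofactor and a coreceptor for Wnt ligands. Another receptor, Fzd6 (-0.40, -0.63 to -0.18), and coreceptor, Lrp6 (-0.43, -0.77 to -0.10), were lower at 24 h by less than 1.5-fold. Both were named after their values were seen. At 3 d the largest were Sox18 (-0.94, -1.11 to -0.77), Ppard (0.79, 0.50 to 1.09) and Nkd1 (-0.78, -1.03 to -0.53).

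Summed over each list, arterial markers were lower and venous markers higher at 24 h, though not every marker passed 1.5-fold. Of 7 measured arterial markers 0 were higher and 3 lower at 24 h (median -0.54), namely Gkn3 (190, 3 and 351 UMIs; -5.81, -8.10 to -4.24), Vegfc (-2.88, -3.67 to -2.17) and Mgp (-1.42, -1.76 to -1.08). At 3 d 1 was lower, Vegfc (-0.73, -1.05 to -0.41), with a median of 0.07. For the 24 h comparison, Gkn3 and Vegfc (150 naive UMIs and 18 at 24 h) reached 100 UMIs through the naive library. Of 5 measured venous markers 4 were higher at 24 h (median 1.79), among them Lcn2 (4, 181 and 77 UMIs; 5.68, 4.30 to 7.57), Vwf (1.85) and Tmem252 (1.79). Lcn2 reached 100 UMIs through the 24 h library and was under that limit at 3 d. At 3 d 3 of 4 were higher (median 0.73), Tmem252 (1.30), Vwf (0.85) and Il1r1 (0.60). Of 6 capillary markers 1 was higher, Ivns1abp (0.86), and 1 lower, Cxcl12 (-1.24), at 24 h (median -0.17), and Ivns1abp (0.96) was higher at 3 d (median -0.22). Of 7 angiogenic tip markers 1 was measured at 24 h (-0.28) and 2 at 3 d, Angpt2 (1.69, 0.95 to 2.52), which reached 100 UMIs through the 3 d library (17 naive UMIs and 111 at 3 d), and Lxn (-0.25). Under that limit, Apln (-1.71, -3.19 to -0.33) and Aplnr (-3.34, -6.57 to -1.11) were lower at 3 d; these and Lxn were named after their values were seen. Mcam, also under that limit and named after its value was seen, was at 0.75 (-0.30 to 1.93) at 3 d. Most tip markers were under the limit, so no direction is read for the list.

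Outside endothelial cells the members were read in astrocyte-like, dividing progenitor-like, microglia-like, neuron-like, oligodendrocyte-like and pericyte-like clusters, named from their markers and called by those names without the suffix. The 10 leading genes of the neuron-like cluster included Adarb2, Dlx6os1 and Stmn2, and the maturity of its cells was not examined. Endothelial cells had the highest level of the 7 classes for 9 members in all 3 libraries. Cldn5 in endothelial cells was 181-fold the next class in the naive library (neurons, 36.0 CPM), 578-fold at 24 h and 154-fold at 3 d. For Ocln the factor over the next class was 73.1, 57.0 and 65.5, for Abcb1a 123, 63.3 and 112, and for Slco1a4 192, 219 and 84.5. For Cav1 it was 20.7, 12.4 and 26.1, with pericytes next at 12.4, 12.8 and 6.68 CPM. These members were thus more than 12-fold lower in every other class compared, in all 3 libraries. Several of the next-class levels rest on few cells: 5 of 770 naive neurons held 91.0% of the 199 neuronal Cldn5 UMIs and 5 held 89.5% of the 76 Slco1a4 UMIs. All 30 Abcb1a UMIs of dividing progenitors at 24 h lay in 5 cells, as did all 9 naive Cav1 UMIs of pericytes in 3 cells. The 24 h factor for Cldn5 rests on 9 UMIs in dividing progenitors (9.34 CPM, interval 4.27 to 17.7), and that for Ocln on 7 UMIs in pericytes. Called doublets were kept in these sums, and their part in the next-class levels was not tested.

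Plvap had its highest measured level in astrocytes, at 4.05 CPM (36 UMIs), 2.46 CPM (7 UMIs) and 2.41 CPM (34 UMIs) in the naive, 24 h and 3 d libraries. In the naive library the intervals of astrocytes (2.84 to 5.61) and dividing progenitors (1.07 to 4.46) overlapped. At 24 h (0.988 to 5.06) and 3 d (1.67 to 3.36) the astrocyte interval also overlapped the endothelial one (0 to 2.79 and 0.0803 to 2.40), so no order of these classes is read from those libraries.

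Tjp1 was the member most widely found outside endothelial cells. Its order in each library was endothelial cells, pericytes and then astrocytes, with pericytes at 537, 822 and 624 CPM and astrocytes at 485, 453 and 464 CPM. In the naive library the intervals of pericytes (485 to 594) and astrocytes (471 to 500) overlapped, as did those of microglia (267 CPM) and oligodendrocytes (253 CPM). Dividing progenitors and neurons were lowest, at 124, 101 and 143 CPM and at 117, 50.9 and 94.7 CPM. In pericytes the log2 ratio of Tjp1 was 0.61 (0.44 to 0.79) at 24 h and 0.22 (0.04 to 0.39) at 3 d.

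Mfsd2a was next highest in astrocytes, and there its differences were larger than in endothelial cells. Astrocytes had 67.3 CPM in the naive library (598 UMIs), 244 CPM at 24 h (696 UMIs) and 117 CPM at 3 d (1660 UMIs). Both TIA libraries were above the naive one, by a log2 ratio of 1.86 (1.70 to 2.02) at 24 h, 3.63-fold higher, and 0.80 (0.67 to 0.94) at 3 d. A Mfsd2a UMI was found in 42.9%, 75.3% and 58.8% of astrocytes, whose median depths were 9336, 11495 and 9307 UMIs, and in 12.05%, 35.5% and 20.4% after thinning, which left out 9, 13 and 17 astrocytes. The thinned microglial shares for Mfsd2a were 0.113%, 0.0304% and 0.372%. Endothelial cells thus stood 4.02-fold above astrocytes for Mfsd2a in the naive library, 1.45-fold at 24 h and 1.91-fold at 3 d. Oligodendrocytes had 8.51, 28.3 and 12.1 CPM of Mfsd2a (28, 34 and 42 UMIs), a log2 ratio of 1.73 (0.97 to 2.51) at 24 h.

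The glucose and amino acid carriers also had higher CPM in astrocytes at 24 h. Slc7a5 stood there at 13.8 CPM in the naive library (123 UMIs), 47.8 CPM at 24 h (136 UMIs) and 17.9 CPM at 3 d (253 UMIs). The log2 ratio was 1.79 (1.42 to 2.15) at 24 h and 0.37 (0.05 to 0.69) at 3 d, and the thinned share of astrocytes with a UMI was 2.51%, 9.81% and 3.30%. Slc2a1 in astrocytes stood at 79.9, 121 and 85.4 CPM (710, 346 and 1207 UMIs), with a log2 ratio of 0.60 (0.42 to 0.79) at 24 h and 0.10 (-0.04 to 0.23) at 3 d. Microglia, at thinned shares from 5.14% to 5.85% for Slc7a5, lay above naive and 3 d astrocytes and below those at 24 h.

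In the other classes these carriers were low. Slc2a1 in oligodendrocytes had 62.6, 85.7 and 56.0 CPM (log2 ratio 0.45 at 24 h, 0.10 to 0.80), and in microglia 39.9, 46.3 and 47.8 CPM. Endothelial Slc2a1 was 15.8-fold the next class in the naive library, 27.1-fold at 24 h and 20.8-fold at 3 d. Slc7a5 in dividing progenitors had 30.8, 27.0 and 49.0 CPM (0.67 at 3 d, 0.33 to 1.01), and the endothelial level was 20.6-fold, 25.1-fold and 17.7-fold the next class.

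**Figure D3:**
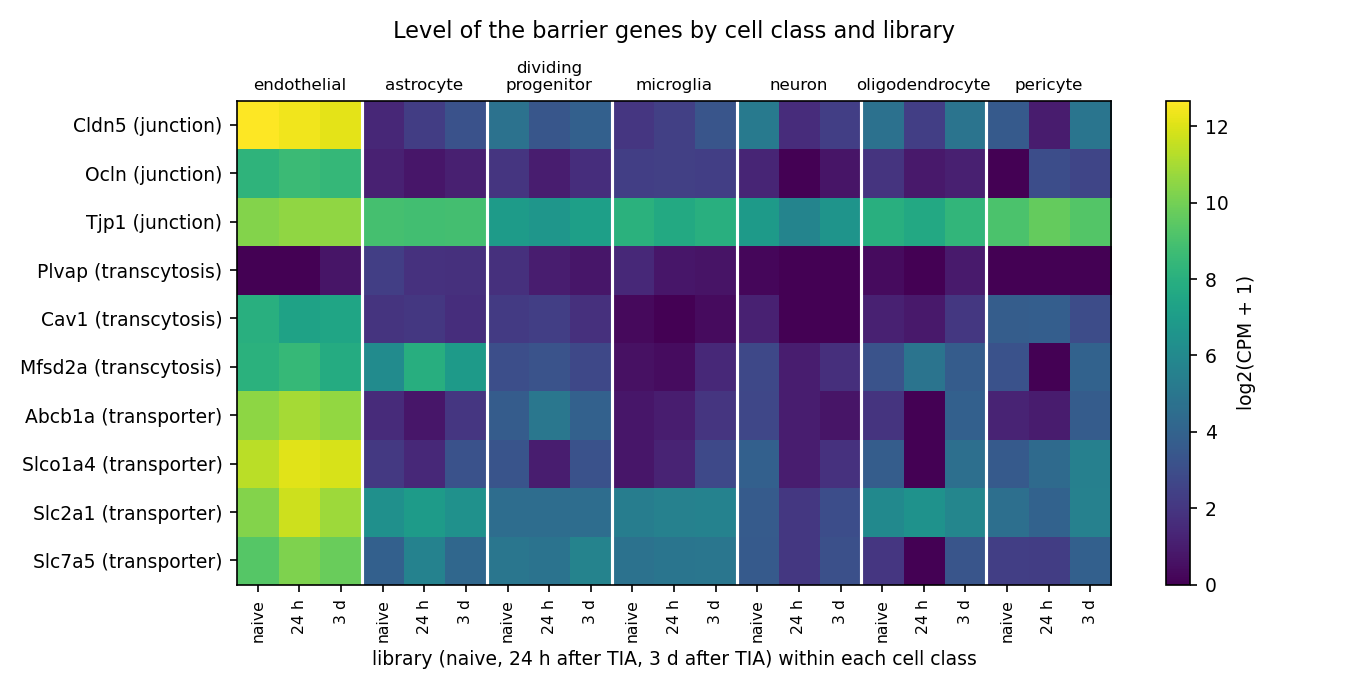
Heat map of log2(CPM + 1) for the 10 members (one axis) in 7 cell classes of the naive, 24 h and 3 d libraries (other axis). Endothelial cells are highest for 9 members, Tjp1 is found in all 7 classes, and Mfsd2a also stands out in astrocytes.

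The genes most like each member across the 21 sums of a class in a library were ranked by Pearson's r of log2(CPM + 1), among 7735 genes with at least 100 UMIs in endothelial cells. The sums share libraries and cell classes, so r describes which class a gene sits in and is given without a test. Cldn5 was most like Ly6c1 (0.979), Cyyr1 and Adgrl4, Ocln most like Slfn3 (0.978), Ly75 and Kdr, and Tjp1 most like Pcca (0.964), Gas2l1 and Wwc2. Cav1 was most like Arl4a (0.974), Ralgapa1 and Pgm5, Mfsd2a most like Gpd2 (0.952), Usp53 and Myrip, and Plvap, at its low counts, most like Rb1 (0.865), Ostm1 and Slc1a3. For the transporters, Abcb1a was most like Hmcn1 (0.986), Erg and Itm2a, and Slco1a4 most like Mecom (0.987), Ptprb and Adgrl4. Slc2a1 was most like Pnpla6 (0.976), Mrtfb and Polk, and Slc7a5 most like Abcc4 (0.942), with Lsr also among its 3.

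The members lie on 7 chromosomes of the GRCm38 build in the GENCODE M21 annotation. Cldn5 (ENSMUSG00000041378) is at chr16:18776847-18778262, Ocln (ENSMUSG00000021638) at chr13:100496507-100552718 and Tjp1 (ENSMUSG00000030516) at chr7:65296165-65527781. Plvap (ENSMUSG00000034845) is at chr8:71497765-71511752, Cav1 (ENSMUSG00000007655) at chr6:17306335-17341452 and Mfsd2a (ENSMUSG00000028655) at chr4:122946850-122961188. Abcb1a (ENSMUSG00000040584) is at chr5:8660077-8748575, Slco1a4 (ENSMUSG00000030237) at chr6:141805440-141856199, Slc2a1 (ENSMUSG00000028645) at chr4:119108711-119137983 and Slc7a5 (ENSMUSG00000040010) at chr8:121881150-121907694.

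Promoter windows from RefSeq on GRCm38.p6, from 250 bases before to 50 after a gene's start, were matched by symbol for 8 of the 10 members, with 10 windows, and not for Plvap and Slc7a5. The windows of Slc2a1 (chr4:119108495-119108794, plus strand) and Slco1a4 (chr6:141856171-141856470, minus strand) are printed because both genes were at least 1.5-fold higher at 24 h. Motifs were chosen with the results known and searched on both strands: ACGTG, the core of the hypoxia response element, in 19.6% of 32851 promoters, GGGCGG, the GC box, in 35.7%, TATAAA, the TATA box, in 13.6%, and CTTTGA, the core of the TCF and LEF site, in 16.0%. Capitals mark a match on either strand. The Slc2a1 window holds 18 CpG, 1 ACGTG, 2 GGGCGG and 1 TATAAA, and the Slco1a4 window 1 CpG and none of the motifs, where the median promoter holds 7 CpG. The same motif counts occur in a window of Cav1, which was lower at 24 h, and ACGTG is also found in the windows of Tjp1 (1) and Mfsd2a (2), so these motifs do not separate the members by direction.
Slc2a1: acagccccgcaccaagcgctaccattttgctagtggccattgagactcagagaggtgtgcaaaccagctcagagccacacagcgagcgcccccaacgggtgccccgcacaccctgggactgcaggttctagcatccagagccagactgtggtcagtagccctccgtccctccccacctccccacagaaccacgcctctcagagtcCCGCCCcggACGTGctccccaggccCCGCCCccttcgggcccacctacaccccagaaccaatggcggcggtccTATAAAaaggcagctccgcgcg
Slco1a4: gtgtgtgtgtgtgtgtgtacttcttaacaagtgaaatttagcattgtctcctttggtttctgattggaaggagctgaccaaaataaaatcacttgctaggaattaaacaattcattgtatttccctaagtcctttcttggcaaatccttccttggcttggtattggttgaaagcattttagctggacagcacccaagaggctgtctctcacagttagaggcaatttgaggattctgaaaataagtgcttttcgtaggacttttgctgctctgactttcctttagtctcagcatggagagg
A match in these windows is a description of the letters, with no measurement of binding behind it.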

How the data were processed

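The authors aligned reads to mm10 with gene models of GENCODE vM23 and deposited raw UMI counts per gene and barcode; the matrix header names Cell Ranger 7.1.0, whereas the labels list 3.1.0. The members and gene lists were chosen with earlier results of these data known. From the counts, cells were filtered, and genes in at least 3 cells (23253) were clustered in Seurat 5.3.0 under R 4.3.3 with Matrix 1.6.5: 2000 variable genes less 25 barrier genes (1975), depth and mitochondrial share regressed, 20 components, resolution 0.5. A cluster was named from the one of 18 cell types with the largest share of its markers found, needing at least 3 markers, each in at least 10% of its cells and at least 2-fold above the other cells. It was left unnamed where its 10 leading genes held more markers of another type than of its own, or held none of its own at a depth under 1/3 of its library's median. Only named classes that reached 50 cells in each of the 3 libraries entered the comparison, which left out fibroblast-like and red blood cell-like clusters and 691 cells of unnamed ones. Scrublet in scanpy 1.11.5 called 2.96% of naive cells (119), 0.571% of the 24 h library (7) and 2.97% of the 3 d library (142) doublets, and these were kept. UMIs were summed per class and library and scaled to CPM. Log2 ratios carry an exact conditional binomial interval, CPM an exact Poisson interval and shares a Clopper-Pearson interval, with 3 counts as the limit where a count is 0, computed in python 3.11.15 with numpy 2.4.6, scipy 1.17.1 and pandas 2.3.3 and drawn with matplotlib 3.10.9. Genes named are the 10 members, up to 3 genes of each list with the largest absolute log2 ratio at each time among those at least 1.5-fold apart with at least 100 UMIs, and the 3 genes most like each member. Some results that this rule names are not reported here.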

Additional observations from a re-analysis of the deposited data

Results flagged for a closer look

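Mfsd2a in endothelial cells moved in opposite directions at the 2 times, with log2 ratios to naive of 0.39 at 24 h and -0.27 at 3 d. The value at 3 d lay between -0.34 and -0.06 over the alternatives, and its interval included 0 within each range of arterial and venous markers. At 3 d it also differed in direction between endothelial cells (-0.27) and astrocytes (0.80).

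Tjp1 at 24 h had a log2 ratio to naive of 0.26 in endothelial cells. It was -0.10 (-0.19 to -0.01) in astrocytes, -0.35 (-0.49 to -0.22) in microglia and -0.36 (-0.57 to -0.15) in oligodendrocytes. In neurons it was -1.20 (-1.65 to -0.78), from 49 UMIs in 110 cells at 24 h. At 3 d it was 0.24 in endothelial cells, -0.06 in astrocytes and -0.31 in neurons. Other classes went the endothelial way, with pericytes at 0.61 at 24 h and, at 3 d, oligodendrocytes at 0.33, pericytes at 0.22 and dividing progenitors at 0.21. None of these differences between times or classes was tested.

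Barcodes that failed the cell filter, which the comparisons do not use, had a higher summed level of the members after TIA. Their summed level there was 395 CPM in the naive library (1168 UMIs), 1299 CPM at 24 h (1450 UMIs) and 738 CPM at 3 d (1746 UMIs), log2 ratios of 1.72 (1.61 to 1.83) and 0.90 (0.80 to 1.01). The 12 endothelial markers in the same barcodes stood at 228, 959 and 525 CPM, and their part in this was not tested. Over all kept cells the members summed to 1010.5, 2510 and 1413 CPM. In kept endothelial cells they summed to 14601, 18628 and 14852 CPM, and there the naive and 3 d intervals overlapped.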

How the results depend on the processing

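Of 113 alternative values for the counts and medians of the members and for how many are highest in endothelial cells, 101 stayed within 1.5 times the count or, for medians, within their interval, and 12 moved. At 24 h a fold of at least 2 left 1 member higher and 0 lower. The member lower at 24 h was also 0 in cells with at most 1 arterial marker UMI, and 0 with at most 1 arterial and at most 1 venous UMI, where 4 members instead of 3 were higher. At 3 d 1 member was higher without Scrublet doublets, with endothelial cells called by marker UMIs, with the mean CPM per cell, with at most 1 arterial and at most 1 venous UMI, and in the 50% of cells with the lowest share of other classes' markers. At 3 d 1 member was lower at resolution 1 and with at most 1 red blood cell marker UMI, and 2 when scaled by the median ratio of genes. The cause was not tested. Lrp1 at 3 d reversed to -0.14 in the 50% of cells. The arterial and venous, red blood cell and 50% alternatives, and the total without red blood cell markers, were chosen after seeing the data. Endothelial cells with at most 1 UMI of other classes' markers numbered 3, 17 and 19 and gave no value.

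The 270 alternative log2 ratios of members kept their sign, and 237 lay within the counting interval. Among the alternatives are the cells with neither arterial nor venous markers. Within the other marker ranges and the finer clusters, which are not among the 270, signs differed from the sum for Mfsd2a, Ocln and Abcb1a. Each of those intervals had 0 inside. At 24 h Slc2a1 ranged from 1.24 to 1.46, Slc7a5 from 0.85 to 1.05, Slco1a4 from 0.63 to 0.75, Cav1 from -0.78 to -0.44 and Mfsd2a from 0.22 to 0.73. At 3 d Cldn5 ranged from -0.59 to -0.35. No paired analysis was possible because the labels link no sample of one condition to one of another. Depth limits Plvap, and with 1 library of 3 pooled mice per condition, variation between mice is unknown.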
